A study of Mus musculus with 12 samples.

Results

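The genes described here are 57 listed genes of DNA replication and mitosis, of which 52 had at least 1 probe set with a single gene symbol on the array, out of 8251 such genes in the whole series. The members were found by name, through the gene symbol of the platform annotation or its older synonym, and no measured value enters that rule. The lists themselves, also those of other cell cycle genes below, were chosen with earlier results of these data known. They form an S phase list of 28 genes (26 with a probe set) and a mitosis list of 29 genes (26 with a probe set), with 71 probe sets in all. Tyms, Pole, Ccnb1, Bub1b and Hmmr had no probe set of their own here, and both probe sets that name Tyms also name another symbol. Where a gene had several probe sets, the one with the highest mean over all arrays represented it. The probe sets of Mcm6, Ccne2 and Cenpe were too dim to be tested, which left 24 S phase genes and 25 mitosis genes.

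Total RNA was measured on 12 one-colour Affymetrix arrays of mouse embryonic fibroblasts of the DBA strain that are KSR1 -/-, so every group lacks the endogenous gene for KSR1, a scaffold that brings Raf, MEK and ERK kinases together. One line expressed green fluorescent protein (GFP) alone, another H-RasV12 (a constitutively active, oncogenic form of H-Ras) with GFP, another re-expressed KSR1 with GFP, and the last both KSR1 and H-RasV12 with GFP. The promoter that drives these transgenes is not given in the sources used here. The lines are called the GFP, H-RasV12, KSR1 and KSR1+H-RasV12 lines. Each line was measured on 3 arrays. Nothing in the labels says that the arrays of a line came from separate cultures, and each condition is 1 line, so the p-values measure the spread between arrays of 4 lines, which may be technical.

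A cell copies its DNA once per division. In the G1 phase the origin recognition complex, Cdc6 and Cdt1 load the MCM helicase onto origins. In S phase Cdc45 helps to activate that helicase, primase and DNA polymerase alpha start each strand, the polymerase clamp Pcna and its loader (the Rfc proteins) let polymerase delta extend it, and Fen1 and ligase 1 join the fragments of the lagging strand. Many of these genes are transcribed by E2F factors once cyclin-dependent kinases have inactivated the retinoblastoma proteins, a step that Ras and ERK signalling can promote in fibroblasts. Genes of mitosis (cyclins A and B, Cdk1, the Aurora and Polo kinases, spindle motors, checkpoint and cytokinesis proteins) are transcribed later, in G2, by the MuvB complex with B-Myb and Foxm1, often through a cell cycle homology region (CHR) near the start site. In a culture the level of these transcripts moves both with the fraction of cells in the phase that expresses them and with the amount per cell, and bulk RNA cannot tell these apart.

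Promoter sequences show how the 2 lists differ in their regulatory letters, and a promoter was found in RefSeq (build GRCm38.p6) for 43 of the 52 genes, 4 of which had more than 1. Each sequence ran from 250 bases before to 50 bases after a start site. Both strands were searched for the E2F letters TTTCGCG and TTTGGCG, the CHR letters TTTGAA, and CCAAT, and the E2F letters can share bases at 1 site on opposite strands. An E2F match was present in 8 of 27 S phase promoters (29.6%), in 1 of 21 mitosis promoters (4.76%), and in 2.37% of all 32851 promoters of the same length. A CHR match was present in 3 of 27 S phase promoters (11.1%), in 16 of 21 mitosis promoters (76.2%), and in 17.9% of all promoters. CCAAT, bound by NF-Y, was present in 15 of 27 (55.6%), 18 of 21 (85.7%) and 37.4%. A match describes the letters in this window and not a bound site. The 160 bases before the start of 5 genes are printed below, chosen because 2 carry the E2F letters that were more frequent in the S phase list, 2 carry the CHR letters found in most mitosis promoters, and Cdk1 carries both. Capitals mark the matches.
Mcm5 (chr8:75109349-75109508, plus strand): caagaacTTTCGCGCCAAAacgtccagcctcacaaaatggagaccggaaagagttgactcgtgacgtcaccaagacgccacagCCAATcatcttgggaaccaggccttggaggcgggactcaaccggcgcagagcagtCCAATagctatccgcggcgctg
Orc1 (chr4:108579294-108579453, plus strand): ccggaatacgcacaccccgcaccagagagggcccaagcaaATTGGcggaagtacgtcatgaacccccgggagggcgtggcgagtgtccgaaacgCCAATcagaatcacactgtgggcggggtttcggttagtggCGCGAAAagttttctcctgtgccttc
Cdk1 (chr10:69352913-69353072, minus strand): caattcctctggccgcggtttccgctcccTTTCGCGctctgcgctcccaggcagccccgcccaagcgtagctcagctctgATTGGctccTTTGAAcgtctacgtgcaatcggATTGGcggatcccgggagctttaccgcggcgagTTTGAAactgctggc
Prc1 (chr7:80294316-80294475, plus strand): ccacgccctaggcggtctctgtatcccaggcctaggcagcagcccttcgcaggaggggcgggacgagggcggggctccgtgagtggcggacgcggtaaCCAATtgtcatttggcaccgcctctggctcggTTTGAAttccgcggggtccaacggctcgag
Top2a (chr11:99024190-99024349, minus strand): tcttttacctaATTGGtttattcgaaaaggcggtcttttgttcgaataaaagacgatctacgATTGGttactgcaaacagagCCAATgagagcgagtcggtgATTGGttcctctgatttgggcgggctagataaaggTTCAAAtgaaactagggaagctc
In Orc1 the E2F letters lie on the opposite strand and start 26 bases before the start site, and in Mcm5 the E2F forms overlap on opposite strands, starting 153 and 148 bases before it. In Prc1, whose window precedes the second of its 2 start sites, a CCAAT lies 62 bases and a CHR 30 bases before that start.

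Levels are MAS5 signals on a linear scale, and changes are log2 fold changes of signal plus a pseudocount of 23, which understates changes of dim probe sets, with standard errors (SE) and two-sided p-values from limma, adjusted by the Benjamini-Hochberg method over 6897 probe sets. A gene is called at an adjusted p under 0.05, and 2 groups are said not to overlap when every array of one lies above every array of the other. The 2% trimmed mean was 500.3 on every array, array medians ran from 160.6 to 216.5, and arrays of one line correlated with r from 0.911 to 0.965. The number of arrays limits the precision. One Ksr1 probe set read 933, 1605 and 207 in the KSR1 line and 301, 262 and 141 in the KSR1+H-RasV12 line, against 144, 21.1 and 37.5 in the GFP line and 14.2 to 32.2 in the H-RasV12 line, and a second one read 180 to 366 in all lines. Of 10 fibroblast marker genes, Col1a1, Col1a2, Col3a1, Fn1, S100a4 and Pdgfra were bright in the GFP line, whereas the probe sets of Vim (group means 73.6 to 90.7) and Thy1 (11.0 to 27.2) were dim in every line. The 10 markers summed to 45200 to 61085 in the GFP line, 45599 to 63397 in the H-RasV12 line, 30086 to 34358 in the KSR1 line and 18498 to 29072 in the KSR1+H-RasV12 line. Of the markers of other cell types, 1 of 6 leukocyte genes (Cd14), 2 of 5 epithelial genes (Cdh1 and Krt19) and 1 of 4 endothelial genes (Pecam1) were bright enough to be tested, while Ptprc (group means 9.97 to 15.0), Epcam (6.65 to 13.5) and Cdh5 (9.48 to 17.0) were at the bottom of the signal range. Krt19, an epithelial keratin, had group means of 118 in the GFP line, 90.2 in the H-RasV12 line, 418 in the KSR1 line and 1209 in the KSR1+H-RasV12 line, and was called higher in every comparison except H-RasV12 against GFP. Cdh1 had group means of 525 to 758 and was called in none.

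By group mean both lists stood highest in the KSR1 line. The mean signal was highest there for 21 of the 24 S phase genes and for 15 of the 25 mitosis genes. It was lowest in the KSR1+H-RasV12 line for 15 of the 25 mitosis genes, while for the S phase genes the lowest mean fell in the GFP line for 10 and in the KSR1+H-RasV12 line for another 10. As the median over genes of the log2 deviation from each gene's own mean, the S phase list stood at 0.31 ± 0.21 (SD, n = 3 arrays) in the KSR1 line, -0.16 ± 0.20 in the GFP line, -0.0027 ± 0.11 in the H-RasV12 line and -0.16 ± 0.30 in the KSR1+H-RasV12 line. The mitosis list stood at 0.17 ± 0.05, -0.06 ± 0.10, 0.03 ± 0.16 and -0.18 ± 0.23 in the same order. The KSR1 arrays lay above all GFP arrays on both lists, but not above all arrays of the other lines. On the S phase list KSR1 replicate 1 (0.071) lay below H-RasV12 replicate 2 (0.095) and KSR1+H-RasV12 replicate 3 (0.121). On the mitosis list H-RasV12 replicate 2 (0.157) lay above KSR1 replicates 1 (0.121) and 2 (0.156). The KSR1+H-RasV12 line had the widest spread on both lists. Single arrays moved many S phase genes at once: GFP replicate 3 was the lowest of its line for 20 of 24 genes, KSR1 replicate 1 for 19, KSR1+H-RasV12 replicate 2 for 17 and H-RasV12 replicate 1 for 15. In that order they were also the lowest of their line for 15, 13, 14 and 17 of the 25 mitosis genes.

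**Figure D1:**
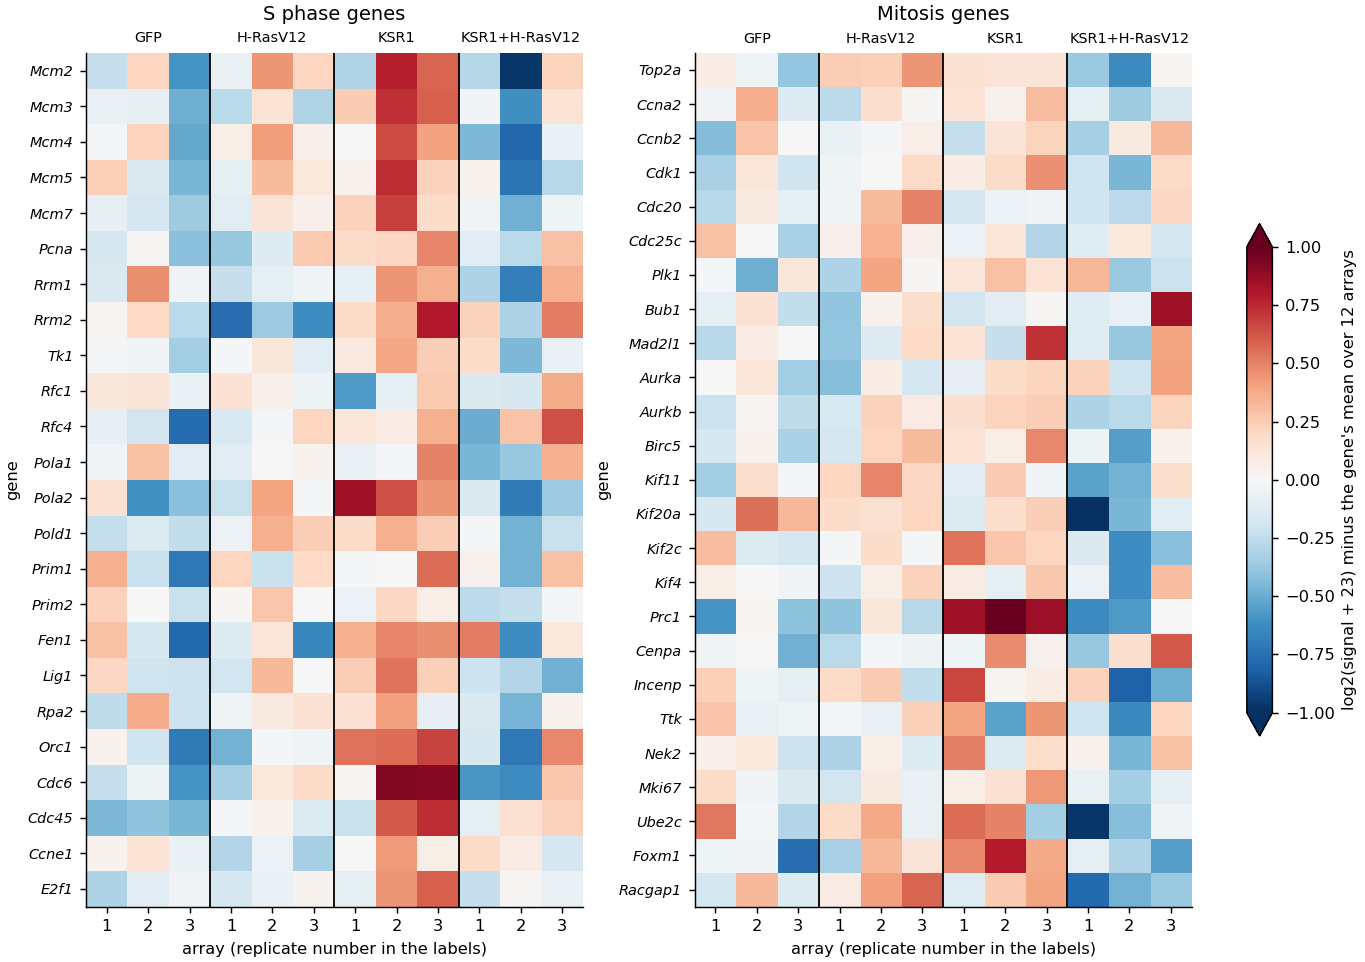
Log2 signal of each tested gene minus its mean over 12 arrays (colour scale from -1 to 1), with arrays as columns grouped by line, S phase genes on the left and mitosis genes on the right. KSR1 replicates 2 and 3 are above the mean for 22 and 23 of the 24 S phase genes, and GFP replicate 3 is above it for 0.

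**Figure D2:**
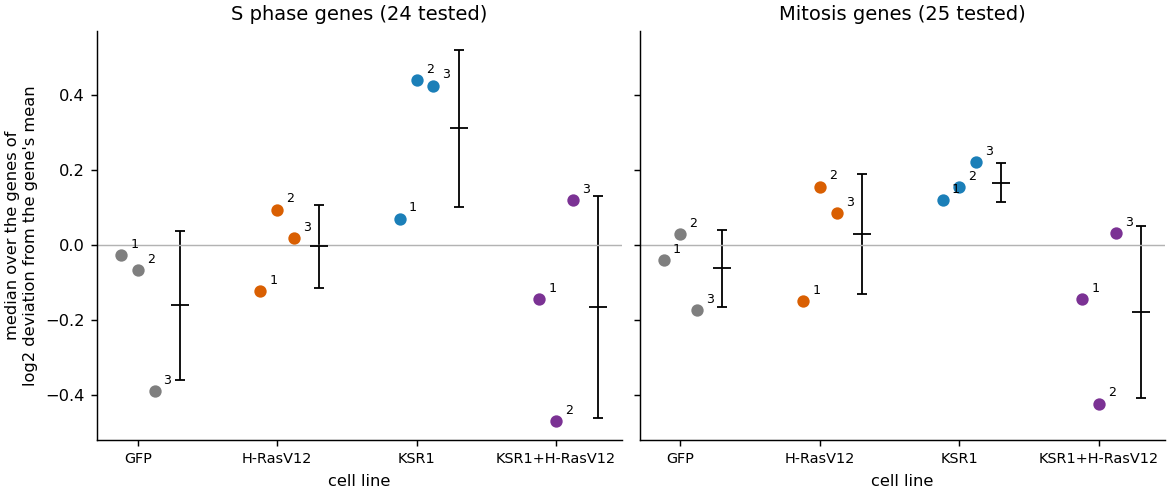
For each array (point, numbered by replicate), the median over the genes of a list of the log2 deviation from the gene's mean; bars are the mean and SD of 3 arrays. The KSR1 arrays run from 0.07 to 0.44 for the S phase list and from 0.12 to 0.22 for the mitosis list.

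The first comparison, H-RasV12 against GFP, sets a line with oncogenic Ras beside one without it, both lacking KSR1. Each condition is 1 line, so here and below a transgene cannot be told apart from its line. No S phase gene (0 of 24) and no mitosis gene (0 of 25) was called, where limma called 0.0725% of all probe sets. At an unadjusted p under 0.05 stood 2 S phase genes and 1 mitosis gene, against 411 of all 6897 probe sets. The median log2 fold change was 0.11 for the S phase list and 0.06 for the mitosis list, beside 0.01 over all probe sets. Leaving out 1 array gave 0.01 (GFP replicate 3) to 0.25 (GFP replicate 1) for the S phase list and -0.0039 to 0.14 for the mitosis list, so neither median has a settled size and that of the mitosis list no settled sign. The groups did not overlap for 3 S phase genes (12.5%) and 2 mitosis genes (8%), against 12% of all probe sets.

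The lowest S phase value in that comparison was that of Rrm2, the small subunit of the ribonucleotide reductase that makes deoxynucleotides. It read 2330, 2636 and 1897 in the GFP line and 1345, 1779 and 1483 in the H-RasV12 line. All H-RasV12 arrays lay below all GFP arrays, and the log2 fold change was -0.56 ± 0.23 (adjusted p = 0.767, limma). The highest S phase value was 0.40 ± 0.33 for the helicase subunit Mcm2, which read 1012, 1388 and 779 in the GFP line and 1137, 1625 and 1385 in the H-RasV12 line, with overlapping arrays. In the mitosis list the highest was Top2a, the topoisomerase that untangles chromosomes, with 1382, 1269 and 997 against 1562, 1549 and 1790. Its groups did not overlap and its log2 fold change was 0.43 ± 0.19 (adjusted p = 0.823). The lowest was the centrosomal kinase Nek2 at -0.11 ± 0.22, with 732, 762 and 610 against 566, 741 and 641, and it overlapped.

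KSR1 against GFP compares lines with and without re-expressed KSR1, both free of oncogenic Ras. Of the S phase genes 3 of 24 (12.5%) were called, all higher, and of the mitosis genes 2 of 25 (8%), both higher, where 4.97% of all probe sets were called higher, 6.81% lower and 11.8% in all. The median log2 fold change was 0.47 for the S phase list, with 23 of 24 genes above 0, and 0.20 for the mitosis list, with 22 of 25 above 0, beside 0.04 over all probe sets. For 12 S phase genes (50%) and 6 mitosis genes (24%) every KSR1 array lay above every GFP array, whereas 30.7% of all probe sets did not overlap in either direction. The share of S phase genes called in all was therefore near that of all probe sets, and the shift of the list's median lay mostly in genes that did not pass the test.

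Among the genes that start replication, Pola2, the regulatory subunit of DNA polymerase alpha, read 788, 456 and 523 in the GFP line and 1294, 1118 and 971 in the KSR1 line. All KSR1 arrays were above all GFP arrays, and Pola2 rose by 0.94 ± 0.24 (limma adjusted p = 0.0177; 0.00551 to 0.305 over 22 alternative settings). Its other probe set gave -0.08 (adjusted p = 0.934), so the increase rests on 1 probe set. Cdc45, which helps to activate the replicative helicase, read 472, 488 and 471 in the GFP line and 558, 1014 and 1103 in the KSR1 line. No array overlapped, KSR1 replicate 1 lay far below the others of its line, and the gene rose by 0.81 ± 0.22 (adjusted p = 0.0285; 0.00144 to 0.124 over the alternatives). Cdc6, the loader of the helicase, read 562, 639 and 433 against 671, 1284 and 1269, with the same low replicate 1. Its log2 fold change of 0.91 ± 0.29 did not pass the test (adjusted p = 0.0578). Orc1, the largest subunit of the origin recognition complex, read 229, 190 and 127 against 334, 338 and 368, with no overlap and 0.88 ± 0.30 (adjusted p = 0.073).

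Of the helicase subunits, Mcm3 read 2013, 2005 and 1508 in the GFP line and 2532, 3543 and 3216 in the KSR1 line. Mcm3 rose by 0.74 ± 0.22 without overlap (adjusted p = 0.0446; 0.0265 to 0.197 over the alternatives), and its other probe set gave 0.77 (adjusted p = 0.0589). The log2 fold changes of the other tested subunits were 0.57 for Mcm7, 0.55 for Mcm2, 0.46 for Mcm4 and 0.46 for Mcm5, and none passed the test. The replication fork genes showed values of like size without a call: 0.48 ± 0.21 for the clamp Pcna, 0.47 ± 0.17 for Pold1 (the catalytic subunit of polymerase delta), 0.65 ± 0.31 for the flap endonuclease Fen1 and 0.41 ± 0.19 for the ligase Lig1. The lowest value of the list was that of Rfc1, the large subunit of the clamp loader, at -0.19 ± 0.22, with 682, 688 and 596 against 415, 588 and 757. It overlapped, and without KSR1 replicate 1 it was 0.03. Polymerase alpha's catalytic subunit Pola1 (0.08), the primase subunit Prim2 (0.07) and cyclin E1 (Ccne1, 0.13, 95% interval -0.26 to 0.51) were close to 0.

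In the mitosis list the largest value was that of Prc1, which bundles the microtubules of the central spindle. Prc1 read 1427, 2202 and 1619 in the GFP line and 3897, 4479 and 3920 in the KSR1 line. The lowest KSR1 array stood well above the highest GFP array, and Prc1 rose by 1.24 ± 0.22 (adjusted p = 0.00166; 0.000745 to 0.0154 over the alternatives). Foxm1, the transcription factor of G2 and M phase genes, read 1790, 1814 and 1078 against 2593, 3212 and 2415. It rose by 0.83 ± 0.23 with no overlap (adjusted p = 0.0323; 0.0156 to 0.173), and its other probe set gave 0.75 (adjusted p = 0.131). The lowest value was -0.15 ± 0.23 for Kif20a, a kinesin of cytokinesis, with 1635, 2693 and 2307 against 1661, 2063 and 2177, and it overlapped.

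The other 22 mitosis genes lay between Kif20a and 0.38, the value of the survivin gene Birc5 (0.38 ± 0.21, adjusted p = 0.286), and none passed the test. For Birc5, the Aurora kinase Aurkb (0.35), the Polo kinase Plk1 (0.31) and Top2a (0.25) every KSR1 array lay above every GFP array, and the mitotic kinase Cdk1 gave 0.37. For Plk1 the gap was narrow (lowest KSR1 array 1770, highest GFP array 1763), and on its other probe sets the arrays overlapped. Mki67, the nuclear antigen used as a marker of proliferation, read 2458, 2116 and 1950 in the GFP line and 2259, 2407 and 2925 in the KSR1 line, an overlap, with 0.21 (95% interval -0.15 to 0.58). Cyclin B2 (Ccnb2) gave 0.09 (-0.38 to 0.55), the anaphase activator Cdc20 gave 0.01 (-0.39 to 0.41), and the checkpoint kinase Bub1 gave -0.03 (-0.56 to 0.50). The intervals of Ccnb2, Cdc20 and Bub1 include moderate changes in both directions and do not show equal levels.

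The counts of this comparison turned on single arrays. No S phase gene (0) was called when KSR1 replicate 2 or either of GFP replicates 2 and 3 was left out, 1 was called with KSR1 replicate 3 or GFP replicate 1 left out, and with KSR1+H-RasV12 replicate 3 left out, which enters through the shared spread, 5 were. The mitosis count was 1 with either of KSR1 replicates 1 and 2, or GFP replicate 3, left out. The median of the S phase list was 0.34 to 0.58 and that of the mitosis list 0.12 to 0.25 when any 1 array was left out. The ratio of the 3' to the 5' beta-actin probe sets is a measure of RNA integrity and labelling. It was 1.07 to 1.26 on the KSR1 arrays and 1.32 to 1.77 on the GFP arrays. The same ratio for Gapdh overlapped, with 0.740 to 0.847 on the KSR1 arrays and 0.806 to 0.876 on the GFP arrays. The sum of fibroblast markers was lower in the KSR1 line, with Col1a2 and Col3a1 called lower (2 of 8 tested). Of the 8, 6 lay below 0 and 2 above it, the highest being Pdgfra (0.46, not called). Krt19 (1.54 ± 0.31, adjusted p = 0.00433) and Cd14 (0.96 ± 0.21, adjusted p = 0.00816) were called higher. Their part in the result was not tested.

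**Figure D3:**
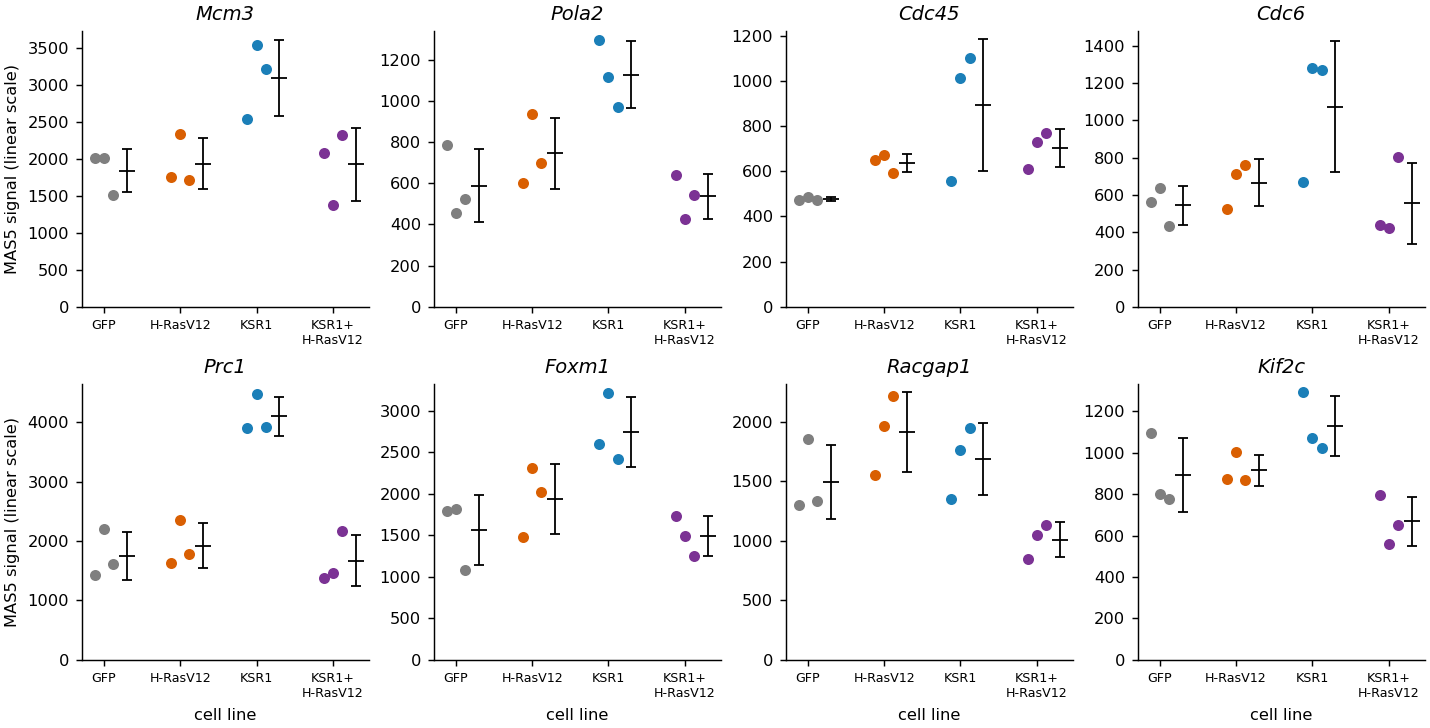
MAS5 signal (linear scale from 0) of 4 S phase genes (top) and 4 mitosis genes (bottom) on each array, ordered by replicate within a line; bars are the mean and SD of 3 arrays. Prc1 reads 3897 to 4479 in the KSR1 line and 1383 to 2347 in the other lines.

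KSR1+H-RasV12 against KSR1, which compares KSR1-expressing lines with and without H-RasV12, went the other way. Of the S phase genes 5 of 24 (20.8%) were called, all lower, and of the mitosis genes 4 of 25 (16%), all lower, where 6.92% of all probe sets were called lower, 8.16% higher and 15.1% in all. The median log2 fold change was -0.42 for the S phase list, with 23 of 24 genes below 0, and -0.33 for the mitosis list, with 21 of 25 below 0, beside -0.07 over all probe sets. For 8 S phase genes (33.3%) and 8 mitosis genes (32%) every KSR1+H-RasV12 array lay below every KSR1 array, and 28% of all probe sets did not overlap in either direction. This comparison shares the KSR1 arrays with the previous one, so a high reading on those arrays enters both with opposite sign.

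Pola2 fell from 1294, 1118 and 971 in the KSR1 line to 638, 425 and 545 in the KSR1+H-RasV12 line. The groups were far apart, with -1.05 ± 0.24 (limma adjusted p = 0.00718; 0.00349 to 0.968 over the alternatives). Its other probe set moved up, by 1.09 (adjusted p = 0.0957), and the mean of both probe sets gave 0.02. Mcm3 read 2082, 1378 and 2329 in the KSR1+H-RasV12 line, below all KSR1 arrays, with -0.70 ± 0.22 (adjusted p = 0.0497; 0.027 to 0.222), a call that 17 of 22 alternatives ended. The other probe set of Mcm3 gave -0.48 and was not called (limma adjusted p = 0.231). The subunit Mcm4 read 1828, 2878 and 2418 in the KSR1 line and 1326, 1045 and 1740 in the KSR1+H-RasV12 line. No array overlapped and Mcm4 fell by 0.79 on the log2 scale (SE 0.24, adjusted p = 0.0406; 0.0214 to 0.169). Cdc6 read 437, 422 and 806 against 671, 1284 and 1269, so KSR1+H-RasV12 replicate 3 overlapped with KSR1 replicate 1, and its change was -0.93 ± 0.29 (adjusted p = 0.0445; 0.0113 to 0.174). Lig1 read 911, 1120 and 906 in the KSR1 line and 659, 617 and 540 in the KSR1+H-RasV12 line. It fell by 0.67 (SE 0.19, adjusted p = 0.029; 0.0233 to 0.124) with no overlap. The highest value was again Rfc1, at 0.15 ± 0.22 with 565, 558 and 819 in the KSR1+H-RasV12 line, and it overlapped.

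Cdc45 was not called in this comparison. It read 609, 730 and 771 in the KSR1+H-RasV12 line, within the range of the KSR1 line, with -0.28 ± 0.22 (adjusted p = 0.455). Against GFP the KSR1+H-RasV12 line gave the highest S phase value for Cdc45 (0.53 ± 0.22, adjusted p = 0.135), with no overlap.

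In the mitosis list Prc1 read 1383, 1454 and 2168 in the KSR1+H-RasV12 line, overlapping with the 1427 to 2202 of the GFP line. Its change from the KSR1 line was -1.31 ± 0.22 without overlap (adjusted p = 0.000866; 0.000383 to 0.0082 over the alternatives). Foxm1 read 1732, 1493 and 1252, below all KSR1 arrays, with -0.87 ± 0.23 (adjusted p = 0.0219; 0.00986 to 0.101), and its other probe set also fell, by 1.16 (adjusted p = 0.0172). Kif2c, a kinesin that takes microtubules apart at the centromere, read 1294, 1070 and 1022 in the KSR1 line and 795, 560 and 651 in the KSR1+H-RasV12 line. The change was -0.74 ± 0.19 with no overlap (adjusted p = 0.0171; 0.00836 to 0.0761). Racgap1, part of the centralspindlin complex of cytokinesis, read 1352, 1760 and 1943 against 848, 1050 and 1129. It fell with no overlap, with -0.72 ± 0.21 (adjusted p = 0.0312; 0.00844 to 0.18). Mki67 read 2053, 1696 and 2026, all below the KSR1 arrays, with -0.39 ± 0.17 (adjusted p = 0.156). Bub1 had the highest value, 0.31 ± 0.25, with 689, 727 and 793 against 720, 747 and 1430; it rests on KSR1+H-RasV12 replicate 3, without which it was -0.0034.

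**Figure D4:**
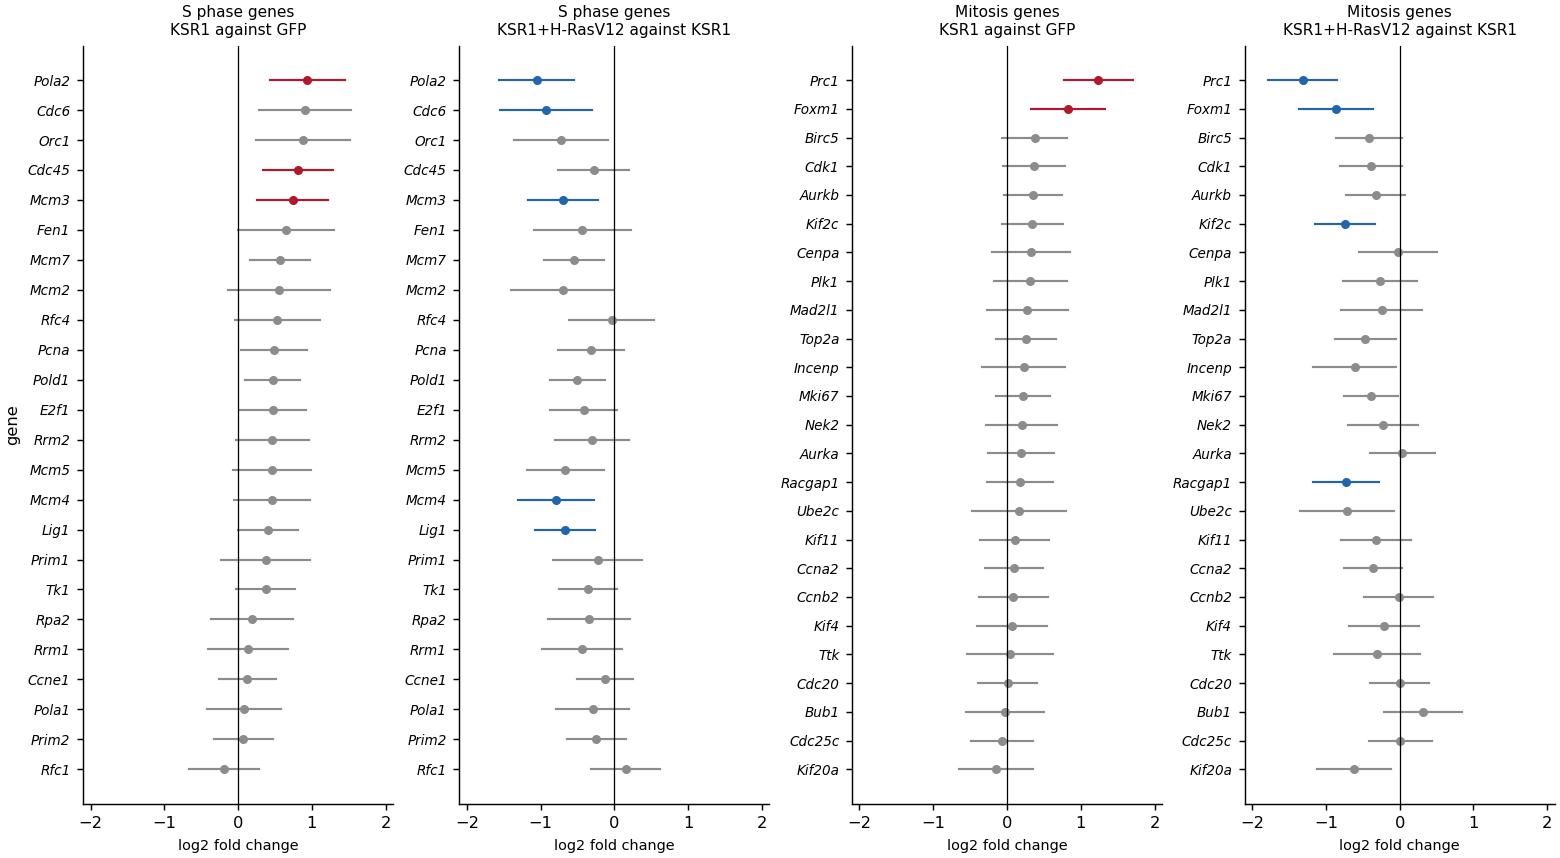
Log2 fold change (points) with its 95% interval (lines) for each tested gene, KSR1 against GFP and KSR1+H-RasV12 against KSR1, ordered within each list by the former; red marks genes called higher and blue genes called lower by limma. The 2 comparisons share the KSR1 arrays; 23 of 24 S phase genes lie above 0 in the former and 23 of 24 below 0 in the latter.

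The S phase count of 5 fell to 1 without KSR1 replicate 2 or KSR1+H-RasV12 replicate 2, to 2 without H-RasV12 replicate 3 or KSR1 replicate 3, and to 3 without GFP replicate 2, H-RasV12 replicate 1 or H-RasV12 replicate 2. The mitosis count of 4 fell to 1 without KSR1+H-RasV12 replicate 2 and to 2 without KSR1 replicate 2. The list medians were -0.56 to -0.26 for S phase, nearest 0 without KSR1+H-RasV12 replicate 2, and -0.50 to -0.23 for mitosis, lowest without KSR1+H-RasV12 replicate 3. With each array centred on its median the median over all probe sets moved up by 0.17, the calls over all probe sets split 701 higher to 308 lower in place of 563 to 477, and 1 S phase gene (Pola2) and 1 mitosis gene (Prc1) remained called lower. The list medians were then -0.26 for S phase and -0.16 for mitosis, beside 0.09 over all probe sets. The beta-actin ratio was 1.34 to 1.73 on the KSR1+H-RasV12 arrays, against 1.07 to 1.26 on the KSR1 arrays. The Gapdh ratio overlapped, with 0.799 to 0.846 on the KSR1+H-RasV12 arrays and 0.740 to 0.847 on the KSR1 arrays. A Ksr1 probe set read 301, 262 and 141 on the KSR1+H-RasV12 arrays and 933, 1605 and 207 on the KSR1 arrays, so the level of Ksr1 may also differ between these lines. Of the fibroblast markers 2 of 8 tested were called lower, Col1a1 (-2.83 ± 0.73, adjusted p = 0.0172) and Pdgfrb (-1.75 ± 0.46, adjusted p = 0.0182). Of the 8, 5 lay below 0 and 3 above it, the highest being Col1a2 (0.41, not called). Krt19 was called higher (1.58 ± 0.31, adjusted p = 0.00276). The part of these in the result was not tested.

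KSR1+H-RasV12 against H-RasV12 compares lines with and without KSR1, both carrying oncogenic Ras. Here 1 of 24 S phase genes (4.17%) was called, higher, and 2 of 25 mitosis genes (8%), both lower, where 7.1% of all probe sets were called higher, 7.71% lower and 14.8% in all, so both shares lay below that of all probe sets. The median log2 fold change was -0.11 for the S phase list and -0.21 for the mitosis list, beside -0.05 over all probe sets. Leaving out 1 array gave -0.28 to 0.01 for S phase and -0.35 to -0.10 for mitosis, in both cases lowest without KSR1+H-RasV12 replicate 3 and highest without KSR1+H-RasV12 replicate 2, so the S phase median has no settled sign. With median centring they were -0.02 and -0.12, and the calls over all probe sets split 525 higher to 399 lower in place of 490 to 532. The groups did not overlap for 4 S phase genes (16.7%) and 5 mitosis genes (20%), against 29.3% of all probe sets. Rrm2 read 2700, 1846 and 3280 in the KSR1+H-RasV12 line, above the 1345 to 1779 of the H-RasV12 line, and rose by 0.73 ± 0.23 (limma adjusted p = 0.0491; 0.0161 to 0.227 over the alternatives, 14 of which ended the call). Racgap1 read 1555, 1962 and 2215 in the H-RasV12 line, above all KSR1+H-RasV12 arrays, with -0.90 ± 0.21 (adjusted p = 0.00841; 0.00185 to 0.0485). Top2a read 1009, 835 and 1330 in the KSR1+H-RasV12 line, below all H-RasV12 arrays, with -0.64 ± 0.19 (adjusted p = 0.0358; 0.0114 to 0.148). Mcm4 had the lowest S phase value, -0.61 ± 0.24 without overlap (adjusted p = 0.115), with 1901, 2432 and 1886 in the H-RasV12 line. The highest mitosis value was 0.32 ± 0.21 for the spindle pole kinase Aurka, with 650, 926 and 779 against 1035, 765 and 1175 and overlapping arrays. No S phase gene was called without GFP replicate 1, 2 or 3, H-RasV12 replicate 1, 2 or 3, KSR1 replicate 1 or 2, or KSR1+H-RasV12 replicate 1 or 3 (0 in each). The mitosis count was 1 without H-RasV12 replicate 1, 2 or 3 or KSR1+H-RasV12 replicate 1 or 2, and 4 without KSR1+H-RasV12 replicate 3. Of the fibroblast markers 5 of 8 tested were called lower in the KSR1+H-RasV12 line than in the H-RasV12 line, Krt19 was called higher (3.47 ± 0.31, adjusted p = 5.15e-06), and their part in the result was not tested.

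KSR1+H-RasV12 against GFP compares both transgenes with neither. No S phase gene (0 of 24) and 1 of 25 mitosis genes (4%), lower, was called, where limma called 15.6% of all probe sets, 7.93% lower. The median log2 fold change was -0.01 for the S phase list, with 12 genes above and 12 below 0, and -0.06 for the mitosis list, beside -0.02 over all probe sets; with median centring the list medians were 0.08 and 0.03, so neither has a settled sign. Of the fibroblast markers 4 of 8 tested were called lower and Krt19 higher (3.12 ± 0.31, adjusted p = 1.01e-05), and their part was not tested. The groups did not overlap for 1 gene of each list (4.17% and 4%), against 28.2% of all probe sets. Kif20a read 900, 1325 and 1694 in the KSR1+H-RasV12 line against 1635 to 2693 in the GFP line, with 1 overlap, and fell by 0.77 (SE 0.23, adjusted p = 0.0386; 0.0101 to 0.15 over the alternatives, 11 of which ended the call). Its other probe set read 475, 427 and 758 against 889, 1143 and 933, without overlap, and gave -0.85 (adjusted p = 0.0113); that probe set was also called lower against the KSR1 line (-0.65, adjusted p = 0.0484) and against the H-RasV12 line (-0.72, adjusted p = 0.0298). The lowest S phase value was -0.33 ± 0.24 for Mcm4, and the highest mitosis value 0.30 ± 0.25 for the centromere histone Cenpa, with 456, 467 and 329 against 354, 524 and 730. The mitosis count was 0 without GFP replicate 2 or 3, H-RasV12 replicate 1, 2 or 3, KSR1 replicate 2, or KSR1+H-RasV12 replicate 1 or 2. The S phase count was 1 (Cdc45) without KSR1 replicate 1 and also 1 without KSR1+H-RasV12 replicate 1.

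The interaction asks whether the difference between lines with and without H-RasV12, called the H-RasV12 response, itself differs with KSR1. It subtracts the H-RasV12 response of the lines lacking KSR1 from that of the lines expressing it. It called 2 of 24 S phase genes (8.33%) and 3 of 25 mitosis genes (12%), all negative, where 3.54% of all probe sets were called negative, 4.16% positive and 7.7% in all. The median was -0.49 for the S phase list, with 21 of 24 below 0, and -0.43 for the mitosis list, with 23 of 25 below 0, beside -0.08 over all probe sets. Prc1 had the largest value, -1.45 ± 0.31 (limma adjusted p = 0.0106; 0.0046 to 0.0472 over the alternatives): H-RasV12 gave 0.14 ± 0.22 without KSR1, where it read 1630, 2347 and 1780, and -1.31 ± 0.22 with it. Pola2 gave -1.39 ± 0.33 (adjusted p = 0.0202; 0.00674 to 0.488), with 602, 936 and 698 in the H-RasV12 line, and its other probe set gave 0.42 (adjusted p = 0.754). Foxm1 gave -1.19 ± 0.33 (adjusted p = 0.0413; 0.02 to 0.12) with 1474, 2313 and 2022 in the H-RasV12 line, and its other probe set -1.51 (adjusted p = 0.0437). Racgap1 gave -1.08 ± 0.30 (adjusted p = 0.0385; 0.0108 to 0.171), with 0.35 ± 0.21 without KSR1 and -0.72 ± 0.21 with it. Pold1 gave -0.89 ± 0.25 (adjusted p = 0.0411; 0.0198 to 0.204). It read 706, 761 and 702 in the GFP line, 801, 1078 and 995 in the H-RasV12 line, 956, 1079 and 996 in the KSR1 line and 824, 597 and 714 in the KSR1+H-RasV12 line, so either transgene alone gave arrays above all those of GFP, and with both together the arrays overlapped with them. The highest values were 0.26 ± 0.33 for Rrm2 and 0.31 ± 0.35 for Bub1, neither of which passed the test.

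**Figure D5:**
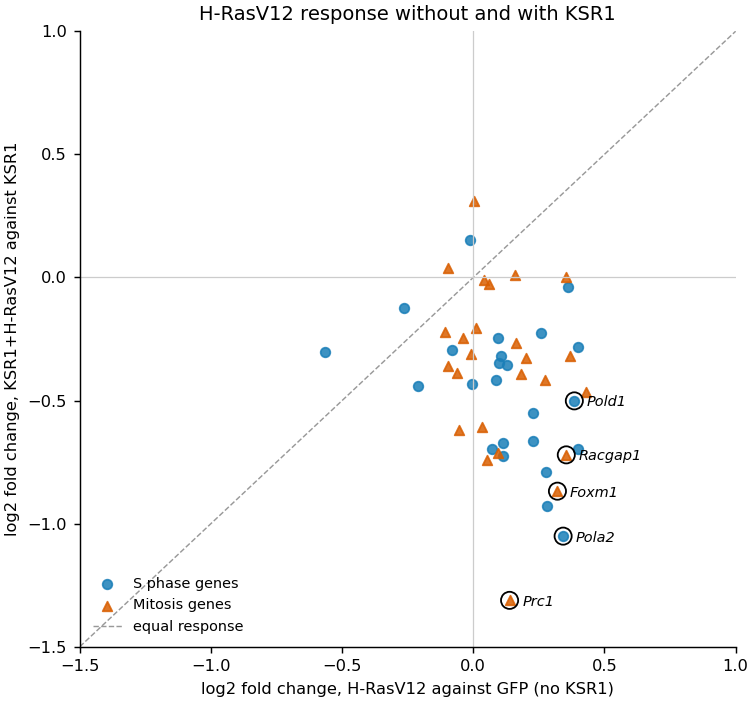
Log2 fold change of each tested gene on H-RasV12 without KSR1 (x axis) against that with KSR1 (y axis); circles are S phase genes, triangles mitosis genes, the dashed line marks equal responses, and rings mark the genes called for the interaction. Of the tested genes 21 of 24 and 23 of 25 lie below the dashed line, and Prc1 lies at 0.14 and -1.31.

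The interaction uses all 12 arrays and its counts turned on many of them. The S phase count was 0 without GFP replicate 2 or 3, H-RasV12 replicate 2 or KSR1+H-RasV12 replicate 2, it was 1 without GFP replicate 1, H-RasV12 replicate 3, or KSR1 replicate 2 or 3, and 3 without KSR1 replicate 1 or KSR1+H-RasV12 replicate 3. The mitosis count was 1 without GFP replicate 3, H-RasV12 replicate 2 or 3, KSR1 replicate 2 or 3, or KSR1+H-RasV12 replicate 2. Median centring moved the median of all probe sets by 0.18, the calls over all probe sets then split 355 positive to 161 negative in place of 287 to 244, and 1 gene of each list remained called.

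In all, 14 of the 49 tested genes were called in at least 1 comparison, 8 of the S phase list and 6 of the mitosis list, making 23 pairs of gene and comparison. That share, 28.6% (33.3% and 24% for the lists), was near the 28.3% of all probe sets called at least once, so the number of calls does not set these genes apart. By its main probe set none of the 49 (0) was called lower in the KSR1+H-RasV12 line than in each of the 3 other lines, where 2.58% of all probe sets were. All 23 stayed called with the replicate number as a block, and 4 of them stayed called under every one of the 22 alternatives: Prc1 for KSR1 against GFP, for KSR1+H-RasV12 against KSR1 and for the interaction, and Racgap1 for KSR1+H-RasV12 against H-RasV12.

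Genes of the same processes outside the 57 were counted in the same way. Of 25 other tested replication genes, limma called none for KSR1 against GFP (0) and 3 lower (12%) for KSR1+H-RasV12 against KSR1, with medians of 0.45 and -0.33. Over all probe sets 11.8% were called in the former comparison and 6.92% called lower (15.1% in all) in the latter. These 3 were Hells, a chromatin remodeller (-1.01 ± 0.30, adjusted p = 0.0328), Uhrf1, which brings the DNA methylase to new strands (-0.95 ± 0.28, adjusted p = 0.037), and Slbp, which binds histone mRNA (-0.83 ± 0.23, adjusted p = 0.0267). The origin licensing factor Cdt1 (0.62 ± 0.20, adjusted p = 0.0489) and the single-strand binding subunit Rpa3 (0.68 ± 0.21, adjusted p = 0.0415) were called higher in the KSR1+H-RasV12 line than in the GFP line. These 2 were 8% of the 25, near the 7.71% of all probe sets called higher in that comparison. Of 26 other tested mitosis genes, 2 (7.69%) were called higher for KSR1 against GFP, where 4.97% of all probe sets were, and 6 lower (23.1%) for KSR1+H-RasV12 against KSR1, where 6.92% were, with medians of 0.22 and -0.45. For KSR1+H-RasV12 against H-RasV12 and against GFP 4 were called lower in each (15.4%), where 7.71% and 7.93% of all probe sets were. The interaction called 3 (11.5%), all negative, where 3.54% were. Kifc1 had the lowest value for KSR1 against GFP (-1.21, not called), opposite in sign to the median. Hmgb2, a chromatin protein, read 1176, 653 and 661 in the GFP line, 1795, 1368 and 1327 in the KSR1 line and 520, 601 and 630 in the KSR1+H-RasV12 line, which gave 0.87 ± 0.24 (adjusted p = 0.0309) and -1.32 ± 0.24 (adjusted p = 0.00187). Cks1b, a cyclin-dependent kinase subunit, gave 0.62 ± 0.18 (adjusted p = 0.0408) and -0.71 ± 0.18 (adjusted p = 0.0175).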

How the data were processed

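The deposited values, made by the authors with MAS5 per the submitters' processing notes (no version is named there), are probe set intensities on a linear scale, with all arrays scaled to 1 trimmed mean. Leaving out 66 array controls from the 12488 probe sets, 1 gene symbol was given for 10833, more than 1 for 396 and none for 1193. Symbols came from the platform annotation, updated by gene identifier to the RefSeq gene table of GRCm38.p6, in which 10817 were found. Values were taken to log2 after adding 23, a pseudocount set near their 20th percentile. A probe set was tested if 3 or more of its 12 signals exceeded 181.4, the overall median (6897 were, 5525 were not). One limma fit (limma 3.58.1, R 4.3.3) with 4 group means, 8 residual degrees of freedom and an intensity trend served all 6 comparisons, with Benjamini-Hochberg adjustment over the 6897 probe sets and no replicate block. It was tested on simulated arrays with the means and spread of these probe sets, for every comparison except the interaction. Of 2-fold changes it recovered 40% (KSR1 against GFP) to 62% (KSR1+H-RasV12 against GFP), and of 4-fold changes 92% to 98%. The simulated noise was independent between probe sets and few probe sets were changed, so recovery on the real arrays may differ. A gene that was not called may therefore still have changed.

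Full values are given for genes called in a comparison and for the lowest and highest member of each list in each comparison; a few others are named for their role. Members and lists were chosen with earlier results of these data known. For Pola2, Foxm1, Mcm3 and Kif20a a second tested probe set is given where its call differed. The second probe sets of Lig1, Pold1 and Rfc1 were too dim to be tested. In a fit without the filter those of Lig1 (-0.41 for KSR1+H-RasV12 against KSR1) and Pold1 (-0.46 for the interaction) kept the sign. That of Rfc1 had the opposite sign, with 0.63 for KSR1 against GFP and -0.82 for KSR1+H-RasV12 against KSR1. Alternatives changed the pseudocount (8 or 100), the filter (none, or 6 arrays), the scaling (quantile or median), the trend, the block, the probe sets averaged, and the arrays left out.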

Additional observations from a re-analysis of the deposited data

Results flagged for a closer look

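In 5 genes the H-RasV12 response differed between the lines with and without KSR1 by the test of the difference itself, limma's interaction term. These were 2 of 24 S phase genes (8.33%) and 3 of 25 mitosis genes (12%), where limma called 7.7% of all probe sets. Prc1 alone stayed called under all 22 alternatives, and the other probe set of Pola2 gave 0.42 (limma adjusted p = 0.754). The response with KSR1 minus that without it was -1.45 for Prc1, -1.39 for Pola2, -1.19 for Foxm1, -1.08 for Racgap1 and -0.89 for Pold1 on the log2 scale. The 6 H-RasV12 arrays and 6 others behind each value come from 1 line per condition. The 3 arrays of the KSR1 line carried the highest group mean for Prc1, Pola2, Foxm1 and Pold1, while for Racgap1 the H-RasV12 line did.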

How the results depend on the processing

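Leaving out each array in turn gave these ranges of called genes, in the order of the report (H-RasV12 against GFP first, then KSR1 against GFP, then KSR1+H-RasV12 against KSR1, H-RasV12 and GFP in turn, and last the interaction): S phase 0 to 0, 0 to 5, 1 to 5, 0 to 1, 0 to 1 and 0 to 3; mitosis 0 to 0, 1 to 2, 1 to 5, 1 to 4, 0 to 1 and 1 to 3; all probe sets 1 to 23, 482 to 934, 699 to 1181, 721 to 1129, 740 to 1169 and 339 to 679. For KSR1 against GFP, median centring left 1 S phase and 1 mitosis gene called, and no filter 1 mitosis gene. For KSR1+H-RasV12 against KSR1, 2 S phase genes were called with no filter or no trend, 3 with probe sets averaged and 1 with median centring, which also left 1 mitosis gene. Against H-RasV12 the S phase count was 0 with no filter, median centring, no trend, or replicates 2 and 3 only, and the mitosis count was 1 with median centring or replicates 2 and 3 only. Against GFP, replicates 2 and 3 only called 1 S phase gene, and the mitosis count was 0 with no filter, median centring or no trend and 2 with the replicate block. For the interaction 1 S phase gene was called with no filter, median centring, no trend or averaged probe sets and 5 with replicates 2 and 3 only, and 1 mitosis gene with no filter, median centring or no trend. H-RasV12 against GFP called 8 of all probe sets with no filter, 10 with the replicate block and 53 with replicates 2 and 3 only. Values that were not called turned sign with replicates 2 and 3 only for Nek2 in H-RasV12 against GFP (0.016), Rfc1 for KSR1 against GFP (0.057) and Rrm2 for the interaction (-0.024). Pola2 for KSR1+H-RasV12 against KSR1, called at -1.05, turned to 0.0200 with probe sets averaged, since its second probe set gave 1.09. With 1 array left out, Rfc1 ran from -0.388 to 0.0282 for KSR1 against GFP and from -0.0645 to 0.351 for KSR1+H-RasV12 against KSR1, Kif20a from -0.348 to 0.0082 for KSR1 against GFP, and Bub1 from -0.0034 to 0.480 for KSR1+H-RasV12 against KSR1 and from -0.0043 to 0.479 for the interaction. Apart from the fewer arrays or the other genes tested that some settings use, the cause was not tested. Same-numbered arrays of different lines deviated together with r of -0.02 to 0.51 (13 of 18 pairs over 0.1) and 10 of 12 arrays correlated best with their own number, a hint from the data and not the design; with the replicate block 4, 5, 1, 0 and 3 S phase genes and 2, 5, 3, 2 and 3 mitosis genes were called, in the order above from KSR1 against GFP. Signals near background and 3 arrays per line limit what can be called.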

Other observations

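Of the 26 tested mitosis genes outside the list of 57, 2 (7.69%) were called lower in the KSR1+H-RasV12 line than in each of the 3 other lines, as were 178 of all probe sets (2.58%). Among the listed genes the second probe set of Kif20a was. Stmn1, which takes microtubules apart, read 4766, 5872 and 4180 in the GFP line, 5112, 4787 and 4490 in the H-RasV12 line, 4524, 5923 and 5538 in the KSR1 line and 2963, 2585 and 1904 in the KSR1+H-RasV12 line. No KSR1+H-RasV12 array reached any other array, and the log2 fold change was -0.99 ± 0.20 against GFP, -0.96 ± 0.20 against H-RasV12 and -1.11 ± 0.20 against KSR1 (limma adjusted p = 0.00282, 0.0036 and 0.00134). These comparisons share the KSR1+H-RasV12 arrays. Ckap2, a spindle protein, read 770, 622 and 881 in the KSR1+H-RasV12 line and 1291 to 2133 on the other arrays, with -1.25 ± 0.19 against GFP (adjusted p = 0.000334). Stmn1 and Ckap2 were chosen after their values were seen, for being called lower in all 3 comparisons.

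Of 10 tested regulators of the cell cycle, 1 (10%) was called higher for KSR1 against GFP, where 4.97% of all probe sets were. In the KSR1+H-RasV12 line 1 (10%) was called lower against KSR1 and 1 (10%) against H-RasV12, where 6.92% and 7.71% were. The interaction called 1 (10%), negative, where 3.54% were. The lowest value for KSR1+H-RasV12 against KSR1 was that of Myc (-1.29). Mybl2, the B-Myb partner of the MuvB complex, read 193, 162 and 203 in the GFP line and 385, 851 and 488 in the KSR1 line, and rose by 1.44 ± 0.37 with no overlap (limma adjusted p = 0.0202). Its other probe set gave 0.51 (adjusted p = 0.239). E2f8, a repressor of the E2F family, read 388, 318 and 246 in the GFP line, 565, 893 and 1121 in the H-RasV12 line, 430, 528 and 1110 in the KSR1 line and 477, 259 and 443 in the KSR1+H-RasV12 line. Its interaction was -2.05 ± 0.48 (adjusted p = 0.019) by one probe set and -1.15 (adjusted p = 0.0583) by the other, and its H-RasV12 response without KSR1, 1.34, did not pass the test.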
